A study of Mus musculus with 92 samples.

Results

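The 8 genes described here are the metallothioneins Mt1 and Mt2 and 6 genes known as targets of the glucocorticoid receptor, Fkbp5, Tsc22d3, Cdkn1a, Zbtb16, Klf9 and Klf15. They were found by their symbols among 13441 genes measured in quadriceps muscle, and all 8 were present. They had been chosen from earlier results of these data, so their levels, their spread and their correlations with each other are given as description, with no test apart from a check against title and library numbers. The samples were 92 DOz mice, an outbred mouse stock in which animals differ in the alleles they inherited, and the labels put them all in 1 group: quadriceps muscle, standard chow from birth, about 18 to 20 weeks of age. The sex of the animals, the hour of collection and whether they had been fasted are not given in the sources used here. Every comparison below is therefore between animals of 1 group, and a p-value measures the spread between these animals.

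Metallothioneins are small, cysteine-rich proteins that bind zinc and other metals, and their genes are switched on by metals through the sensor MTF-1 and also by glucocorticoids and inflammatory cytokines. Glucocorticoids, the adrenal steroids that rise in stress, in fasting and before the active part of the day, act through the glucocorticoid receptor, a transcription factor held in an Hsp90 chaperone complex until hormone binds. In skeletal muscle the receptor is known for turning on genes of protein breakdown, amino acid use and feedback on its own signal, and several of its targets are also driven by the circadian clock.

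Promoter windows are shown for Mt1, Mt2, Cdkn1a and Klf15, the members whose windows held several copies of a searched motif or a rare one. The sequences are from RefSeq on build GRCm38.p6, run 5′ to 3′ on the strand of the gene, and hold 250 bases before and 30 bases after the start site. Of the 8 members, 7 had a promoter in the RefSeq table and Zbtb16 is named only. Capitals mark the metal response core (TGCACNC or TGCGCNC, either strand) in Mt1 and Mt2, the paired p53 core (CATG, any 6 bases, CATG) in Cdkn1a and the E-box (CACGTG) in Klf15.
Mt1 (chr8:94178839-94179118, + strand): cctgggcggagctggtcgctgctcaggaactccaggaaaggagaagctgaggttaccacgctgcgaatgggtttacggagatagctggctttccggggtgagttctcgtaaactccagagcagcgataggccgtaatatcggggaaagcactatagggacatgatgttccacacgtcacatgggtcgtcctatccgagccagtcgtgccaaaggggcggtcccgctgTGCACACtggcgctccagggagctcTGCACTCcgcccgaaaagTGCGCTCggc
Mt2 (chr8:94172368-94172647, + strand): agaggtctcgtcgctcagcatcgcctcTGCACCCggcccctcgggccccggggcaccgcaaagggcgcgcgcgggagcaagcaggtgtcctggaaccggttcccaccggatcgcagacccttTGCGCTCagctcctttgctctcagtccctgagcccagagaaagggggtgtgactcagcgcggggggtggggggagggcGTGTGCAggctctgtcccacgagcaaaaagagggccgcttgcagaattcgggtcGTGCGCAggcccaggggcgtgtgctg
Cdkn1a (chr17:29090729-29091008, + strand): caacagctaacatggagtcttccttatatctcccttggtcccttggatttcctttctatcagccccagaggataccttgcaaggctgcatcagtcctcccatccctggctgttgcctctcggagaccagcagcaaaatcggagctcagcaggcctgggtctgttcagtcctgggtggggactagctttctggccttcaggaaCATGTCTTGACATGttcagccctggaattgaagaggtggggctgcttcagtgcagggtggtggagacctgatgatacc
Klf15 (chr6:90462326-90462605, + strand): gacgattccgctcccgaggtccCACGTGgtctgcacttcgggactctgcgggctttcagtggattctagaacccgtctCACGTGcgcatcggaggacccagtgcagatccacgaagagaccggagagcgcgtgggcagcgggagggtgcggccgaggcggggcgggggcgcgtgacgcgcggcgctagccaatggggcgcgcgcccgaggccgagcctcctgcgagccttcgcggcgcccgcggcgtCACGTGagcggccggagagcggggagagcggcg

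The Mt1 window held 3 metal response cores, with first bases at positions -23, 3 and 21 from the start site. The Mt2 window held 4, at positions -223, -128, -50 and 5. Of 32851 RefSeq promoters of 300 bases, 25.7% held at least 1 such core and 1.97% at least 3. Searching all promoters of the members for the glucocorticoid response palindrome (GNACA, any 3 bases, TGTNC), found in 0.475% of promoters, gave 1 match, at position -94 of Mt1. The paired p53 core of Cdkn1a, the gene of the cell cycle inhibitor p21, stood at the first of its 2 listed starts and began at position -48, and 0.712% of promoters held this core. The Klf15 window held 3 E-boxes, the letters bound by the clock factors CLOCK and BMAL1, at positions -228, -172 and -3, against at least 3 in 0.0883% of promoters. The second of them overlapped a metal response core at position -169, and Fkbp5 held 1 E-box at position -169. At least 1 E-box was found in 7.15% of promoters. These matches describe letters in short windows and were not tied to the levels by any test.

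Values are deposited log2 expression on a per-million scale to a close approximation, so a difference of 1 is a doubling. Mt1, at chr8:94179082-94180327 on build GRCm38, was measured at 0.10 in the lowest animal, 1.77 at the median and 5.92 in the highest, a 56.5-fold range, with a mean of 2.05 ± 1.29 (SD, n = 92). Mt2, its neighbour at chr8:94172664-94173568, ran from -1.50 through a median of 0.98 to 6.18, a 205-fold range, with a mean of 1.53 ± 1.89. Only 36 of the 13441 genes had a larger SD than Mt2, and the median SD of all genes was 0.32. Most animals held little metallothionein RNA and a minority held a great deal.

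That minority was set apart by a gap. No animal had Mt2 between 3.11 and 3.93, and 15 animals lay above the gap and 77 below it. The same 15 animals were the highest for Mt1, at 3.48 or more, while the other 77 reached at most 3.05. They came from all 5 runs of title numbers described below, with 4, 3, 4, 3 and 1 animals. The main counts of called genes are also given without these 15 animals. Leaving them out was chosen after seeing the data, and it also narrows the range of each member and lowers the number of animals.

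**Figure D1:**
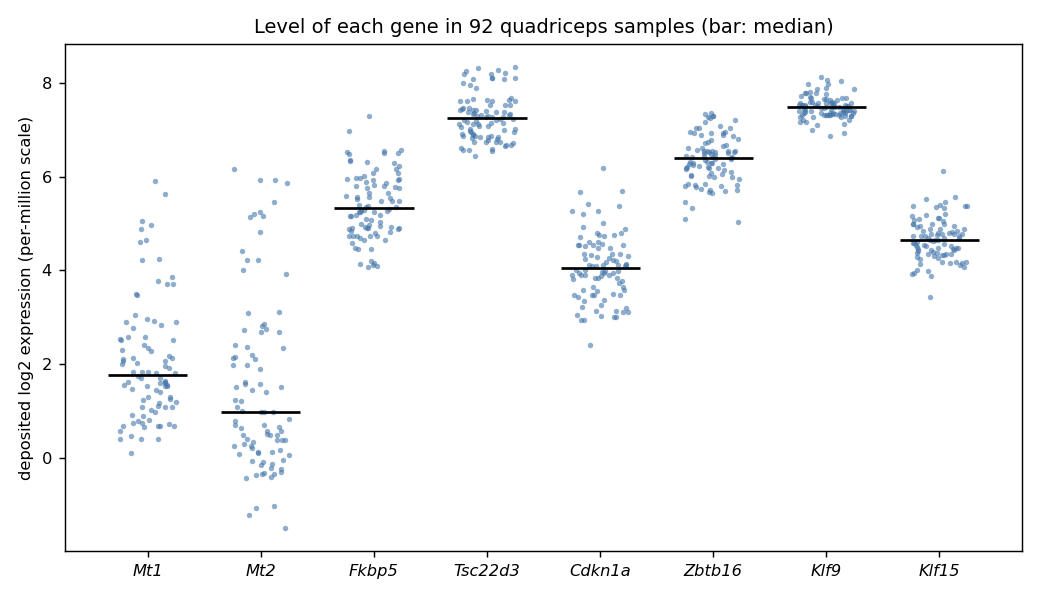
Each point is 1 of 92 quadriceps samples, the vertical axis is the deposited log2 expression on a per-million scale, and the black bar is the median of each gene. Mt2 spans from -1.50 to 6.18 with a gap between 3.11 and 3.93, while Klf9 stays between 6.87 and 8.14.

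Fkbp5, the Hsp90 cochaperone that lowers the hormone affinity of the glucocorticoid receptor (chr17:28399094-28517527), had a lowest level of 4.07, a median of 5.34 and a highest level of 7.31, a 9.42-fold range. Tsc22d3, which encodes the glucocorticoid-induced leucine zipper GILZ (chrX:140539528-140600659), lay between 6.45 and 8.35 with a median of 7.26, a 3.72-fold range. Cdkn1a (chr17:29090976-29100727) ran from 2.40 through 4.05 to 6.19, a 13.8-fold range. Zbtb16, a zinc finger repressor also called PLZF (chr9:48654297-48836222), ran from 5.03 through 6.41 to 7.36, a 5.02-fold range. In log2 units none of these 4 genes had a gap between neighbouring animals as wide as that of Mt2, 0.82. The SD of Mt2, 1.89, was also the largest of the 8. On the scale of its own SD, 0.71, Cdkn1a had a wider gap, from 2.40 to 2.94 at its low end.

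The remaining pair are zinc finger transcription factors of the Kruppel-like family. Klf9 (chr19:23141226-23168134), which is also a target of the clock and of thyroid hormone, stayed between 6.87 and 8.14 with a median of 7.49, a 2.42-fold range. Klf15 (chr6:90462576-90475238), a regulator of amino acid breakdown in muscle, ran from 3.44 through 4.65 to 6.12, a range of 6.40-fold. On the scale of its SD, 0.45, the Klf15 gap between the second highest animal, 5.57, and the highest was also wider than that of Mt2. Klf9 was thus the steadiest of the 8 genes.

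Spread falls with level, so each SD was also set against the trend of all genes at the same mean. The log2 ratio of the SD to that trend was 2.02 for Mt2 and 1.70, 1.66 and 1.48 for Fkbp5, Mt1 and Cdkn1a. This log2 ratio was 1.31 for Zbtb16, 1.25 for Tsc22d3, 0.94 for Klf15 and 0.22 for Klf9. By this measure 7 of the 8 members were at or beyond the 92.9th percentile of all genes, and Klf9 was at the 66.4th. These percentiles come from the values that chose the members.

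Levels of different genes can be compared only per length of transcript. With merged exon lengths from the GENCODE M21 annotation, the mean log2 level per kilobase was 5.23 ± 0.24 for Klf9 and 5.18 ± 0.49 for Tsc22d3, which did not differ beyond their SD over animals. Zbtb16 followed at 3.99 ± 0.51 and Klf15 at 3.19 ± 0.45, each separated from its upper neighbour by more than the SD of either. Mt2 at 2.30 ± 1.89, Cdkn1a at 2.25 ± 0.71, Fkbp5 at 2.16 ± 0.70 and Mt1 at 1.73 ± 1.29 lay within each other's spread. The genes were measured in the same animals, so these SDs do not test differences between their means. On the deposited scale, with no length taken into account, Mt1 was above Mt2 in 67 animals and below it in 25, with a mean difference of 0.52 ± 0.81, but per kilobase the order of the means was the reverse. The annotation the authors counted against is not given in the sources used here, so these lengths, and the shared stretches given next, may differ from those behind the deposited values. The merged exons of Mt1 take in an annotated transcript that keeps its introns, which lowers its value per kilobase.

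The Mt2 values carry a limit of their own. Of its 31-base stretches, 58.1% were also found in transcripts of other genes, chiefly the overlapping antisense gene Gm45774, and the counting is not stated to use strand, so reads from that shared stretch cannot be assigned to Mt2 or to its antisense partner. Mt1 shared none of its 31-base stretches with another gene. Cdkn1a shared 9.78% and overlaps the gene AC167363.2, Fkbp5 shared 2.06%, and Klf9 and Klf15 shared none.

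The pair of metallothioneins had a Pearson r of 0.94 and a Spearman rho of 0.90 over the 92 animals. Within the 5 runs of title numbers r lay between 0.93 and 0.96. It was 0.81 in the 77 animals below the gap and 0.90 in the 15 above it. Mt1 was the gene most correlated with Mt2 among all genes, and Mt2 with Mt1. These values describe genes chosen for moving together and come with no test.

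All 28 pairs of members had a positive r over the 92 animals, and 25 had a positive rho, with a median r of 0.45. In the 77 animals below the gap the median r was 0.23 and 19 pairs were positive, and in the 15 animals above it the median was 0.19 and 21 pairs were positive. After the first 3 principal components of all other genes were removed, the median r was 0.099 and 20 pairs were positive. The third of these components had an r of 0.79 with Zbtb16, 0.68 with Mt1 and with Mt2, 0.58 with Tsc22d3 and 0.57 with Fkbp5.

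Below the gap 2 sets of members still moved together. Zbtb16 was correlated with members of both, but its r was -0.016 with Klf9 and 0.17 with Klf15. Fkbp5 kept its correlation with Mt2, at 0.59 against 0.53 over all animals, with Cdkn1a, at 0.56 against 0.52, and with Zbtb16, at 0.46 against 0.55. Tsc22d3 kept most of its correlation with Klf15, at 0.44 against 0.55, with Zbtb16, at 0.40 against 0.44, and with Klf9, at 0.32 against 0.48. Klf9 and Klf15 went together at 0.34, against 0.50 over all animals.

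Between these sets r below the gap was small or negative. It was lowest for Fkbp5 with Klf9, at -0.31 against 0.055 over all animals. Cdkn1a with Klf9 had -0.23 below the gap, against 0.039 over all animals. Mt2 had an r of 0.50 with Tsc22d3 over all animals and of 0.19 below the gap, and its r with Klf15 went from 0.35 to -0.013. Fkbp5 had an r of 0.084 with Klf15 over all animals, -0.26 below the gap and 0.63 in the 15 animals above it. Within the runs of title numbers the r of Fkbp5 with Klf15 ran from -0.52 to 0.61, and that of Tsc22d3 with Klf15 from -0.0028 to 0.75. The division was made after these values were seen.

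**Figure D2:**
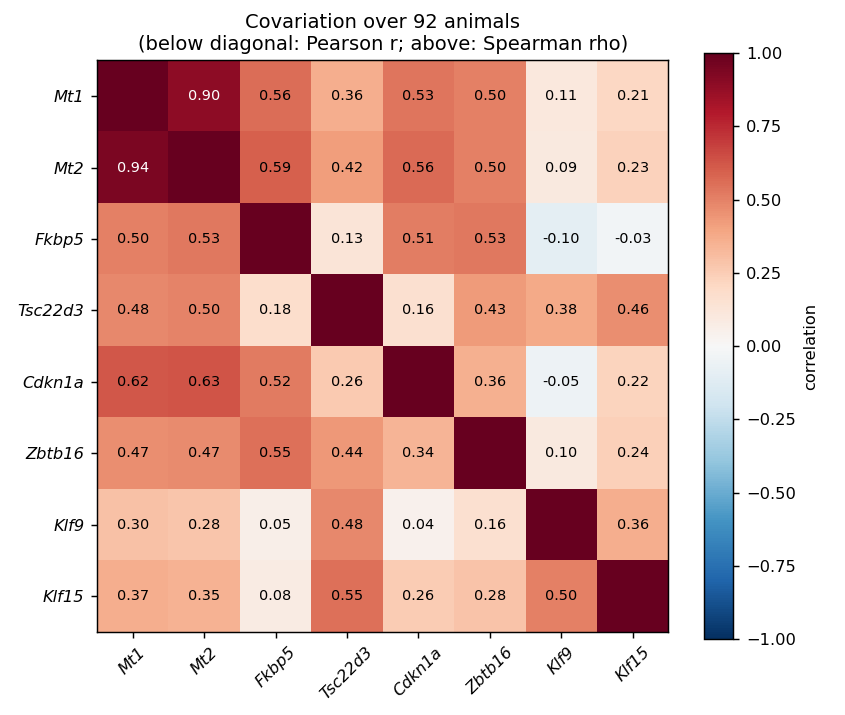
Each cell is the correlation of 2 genes over 92 animals, Pearson r below the diagonal and Spearman rho above it, on a colour scale of correlation. Mt1 and Mt2 stand at 0.94, and Klf9 is near 0 with Fkbp5 and Cdkn1a.

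The animal with the most Mt2 had little Fkbp5. The mouse with the highest Mt2, 6.18, also had Mt1 at 5.63 and Tsc22d3 at 8.29, with only 2 animals higher for Tsc22d3 and only 1 higher for Mt1. Its Fkbp5 was 4.11, and only 2 of the 92 animals were lower. Its Zbtb16 was 5.84, with 15 animals lower. Of the other 14 animals above the gap 3 also had Fkbp5 below its median, between 4.95 and 5.17.

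**Figure D3:**
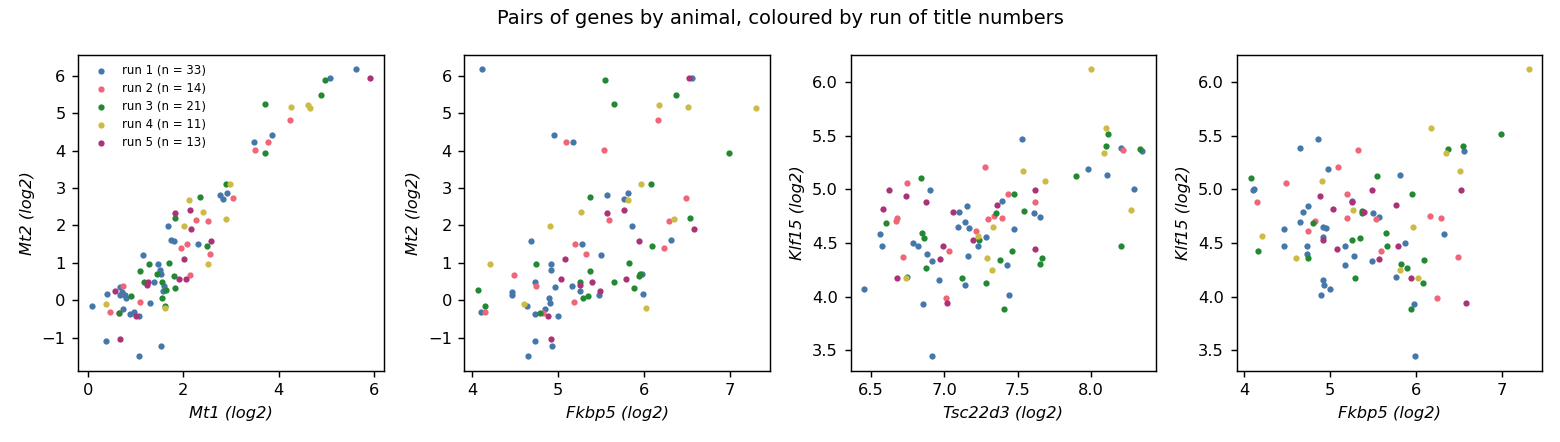
Each point is 1 animal, both axes are deposited log2 expression, and colours mark the 5 runs of title numbers. Mt1 and Mt2 lie on a narrow band, the animal with the highest Mt2 has Fkbp5 at 4.11, and Fkbp5 and Klf15 show no common slope.

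The rest of the transcriptome was not used to choose the members, so it could be tested. The gene lists below were chosen with earlier results of these data known, so list counts are descriptions. For each member a limma slope of every other gene was fitted on the standardised level of that member over the 92 animals, with two-sided p-values adjusted by Benjamini-Hochberg over all genes. A slope is the change in log2 expression per SD of the member, and a gene was called when its adjusted p was under 0.05. Counts leave out the 8 members and so are of 13433 genes. The 8 fits use the same animals, so their results are set side by side, and a difference between members in any association was not tested.

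Animals with more Mt1 or Mt2 RNA had more RNA of stress, cytokine and macrophage genes and less of endothelial and clock output genes. With Mt1, 1763 genes were called, 13.1% of those tested, with 833 higher (6.2%) and 930 lower (6.92%). With Mt2, 1592 were called, 11.9%, with 808 higher (6.02%) and 784 lower (5.84%). Without the 15 animals above the gap the counts were 352 for Mt1 and 143 for Mt2, and with 3 principal components as covariates they were 13 and 52. Among the called slopes singled out for each member, the number still called in the same direction without the 15 animals was 2 of 7 for Mt1, 10 of 27 for Mt2, 11 of 16 for Fkbp5, 16 of 19 for Tsc22d3, 2 of 14 for Cdkn1a, 19 of 20 for Zbtb16, 1 of 15 for Klf9 and 12 of 16 for Klf15.

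The steepest slopes on Mt2 were those of Lgals3, which encodes the macrophage lectin galectin-3, Gm48942 and Arrdc2, an arrestin-domain gene. Lgals3 had a lowest level of -0.082, a median of 1.60 and a highest level of 6.24 in the 92 animals, and its slope was 0.76 ± 0.073 (SE, adjusted p = 6.33e-14). Below the gap it was 0.67 ± 0.12 (adjusted p = 0.000297). Gm48942 rose by 0.75 ± 0.11 per SD (adjusted p = 5.38e-07), and by 1.14 ± 0.19 below the gap (adjusted p = 0.000152). On the falling side were Gm30794, at -0.63 ± 0.19, Inmt, a methyltransferase gene, at -0.56 ± 0.072, and Vipr2, a neuropeptide receptor gene, at -0.44 ± 0.14. For Mt1 the falling genes chosen by the same rule were also Gm30794, Inmt and Vipr2, and the rising ones were Gm48942, Lgals3 and the nuclear receptor gene Nr4a3, at 0.69 ± 0.16.

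The genes most like the metallothioneins over the 92 animals were Sbno2, with an r of 0.76 with Mt1 and 0.77 with Mt2, then Ip6k3, an inositol phosphate kinase gene, and the kinase gene Map3k6 for Mt1, at 0.74 and 0.69. For Mt2 they were the chemokine gene Ccl6 and Lgals3, at 0.740 and 0.735. These r values describe likeness over the same animals, in libraries of unknown depth, and no p is attached to them.

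Among 11 acute-phase and cytokine response genes, 8 were called higher with Mt1 and 8 with Mt2, and none lower. The median slope of the list was 0.24 on Mt1 and 0.23 on Mt2, against -0.0052 and -0.0043 over all genes. Il4ra, which encodes the interleukin-4 receptor chain, rose by 0.36 ± 0.037 per SD of Mt2 (adjusted p = 9.52e-13), Osmr, the oncostatin M receptor gene, by 0.34 ± 0.043, and Stat3, the cytokine signalling factor, by 0.23 ± 0.029. Once the 15 animals were left out, none of the 11 was called with either gene in limma, and 3 with Mt1 and 5 with Mt2 rose at an unadjusted p under 0.05. With 3 principal components as covariates none of the 11 was called with either gene, 2 with Mt1 and 3 with Mt2 rose at an unadjusted p under 0.05, and the median slopes were 0.072 and 0.058.

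Macrophage markers moved with the same genes. Of 8 markers, 6 were called higher with Mt1 and 7 with Mt2, including Cd68 at 0.40 ± 0.073, C1qb at 0.34 ± 0.057 and Lyz2 at 0.33 ± 0.064 per SD of Mt2. The weakest marker, Adgre1, still had a mean level of 1.59, and the summed level of the list ran from 5.49 to 9.20 in the 92 animals. Its score had an r of 0.39 with Mt1 and 0.44 with Mt2, and between -0.092 and 0.18 with the other 6 members. In bulk tissue, more cells of a type and more RNA per cell cannot be told apart. In the 77 animals below the gap 2 of the 8 markers were called with Mt2 and none with Mt1, with 5 and 4 at an unadjusted p under 0.05. Adjusted for 3 principal components, none was called in limma, 1 with Mt2 and 2 with Mt1 were lower at an unadjusted p under 0.05, and the slope of Lyz2 on Mt2 became -0.0093.

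Genes that rise in muscle when its nerve is lost or its fibres are stressed followed the metallothioneins too. Of 11 such genes 8 were called higher with each of Mt1 and Mt2, with median slopes of 0.21 and 0.20. Runx1, a transcription factor gene known from denervated muscle, rose by 0.34 ± 0.059 per SD of Mt2 (adjusted p = 9.43e-06), Myog, a myogenic factor gene, by 0.28 ± 0.074, and Ankrd1, a muscle stress gene, by 0.38 ± 0.10. With 7 marker scores as covariates 1 of the 11 was called with each, and without the 15 animals also 1. Once 3 principal components were covariates none was called in limma, 1 with each was lower at an unadjusted p under 0.05, and on Mt2 the slopes of Runx1 and Myog became -0.025 and -0.014.

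Endothelial and Schwann cell markers went the other way. Of 8 endothelial markers 5 were called lower with Mt1 and 5 with Mt2, among them Kdr, the VEGF receptor 2 gene, at -0.24 ± 0.035, Cdh5, VE-cadherin, at -0.11 ± 0.026, and Tek at -0.13 ± 0.027 per SD of Mt2. The summed level of the endothelial list ran from 7.54 to 8.70, and its score had an r of -0.43 with Mt1 and -0.37 with Mt2. Of 7 Schwann cell markers 4 were called lower with each metallothionein, and the summed level of that list ran from 3.75 to 6.69. Below the gap no marker of either list was called with Mt1 or Mt2 in limma, and 1 endothelial marker with each and no Schwann cell marker had an unadjusted p under 0.05. With 3 principal components none of these markers was called either, and on Mt2 the slopes of Kdr and Cdh5 became positive, at 0.036 and 0.0026. In that fit 2 Schwann cell markers were higher with each metallothionein at an unadjusted p under 0.05, as was 1 endothelial marker with Mt2, and 1 endothelial marker was lower with Mt1. The 7 skeletal muscle markers were all present at high levels, with a summed level between 15.7 and 16.3, and 1 was called lower with Mt1 and 2 with Mt2.

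The clock association had no fewer calls without the 15 animals. Of 18 circadian clock genes, a list without Per1, 7 were called lower with Mt1 and 6 with Mt2, and 1 higher with each. Per1, a period gene counted here among the glucocorticoid-responsive genes, was called higher with both, at 0.33 ± 0.092 on Mt1 and 0.39 ± 0.089 on Mt2. Below the gap 8 of the 18 were called lower with each, and with 3 principal components 1 was, Per2. Hlf, a clock output factor of the PAR bZIP family, fell by 0.32 ± 0.043 per SD of Mt2 (adjusted p = 1.19e-08), and its slope below the gap was -0.36 ± 0.067 (adjusted p = 0.000556). Nr1d1, the REV-ERB alpha repressor, fell by 0.23 ± 0.032, and Nfil3, the repressor that binds the same letters as Hlf, rose by 0.39 ± 0.071. Nfil3 rose by 0.53 ± 0.13 below the gap (adjusted p = 0.0257).

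Of 19 zinc and metal handling genes 1 was called with Mt1 and with Mt2, the zinc importer gene Slc39a14, at 0.24 ± 0.029 and 0.23 ± 0.030 per SD, a share close to the 6.2% and 6.02% of all genes called higher. The list's median slope was 0.0055 on Mt1 and -0.00035 on Mt2. Mtf1, the gene of the metal sensor itself, lay between 4.19 and 5.22 with a median of 4.80, and its slopes were 0.037 ± 0.022 on Mt1 (adjusted p = 0.284) and 0.050 ± 0.022 on Mt2 (adjusted p = 0.125). Among 11 oxidative stress genes 4 were called higher with each metallothionein, and with Mt2 these included Hmox1, heme oxygenase, at 0.35 ± 0.046, Srxn1, sulfiredoxin, at 0.25 ± 0.053 and Txn1, thioredoxin, at 0.082 ± 0.021. Below the gap 1 of the 11 was called with each, and with 3 principal components none in limma, with 1 for each at an unadjusted p under 0.05.

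**Figure D4:**
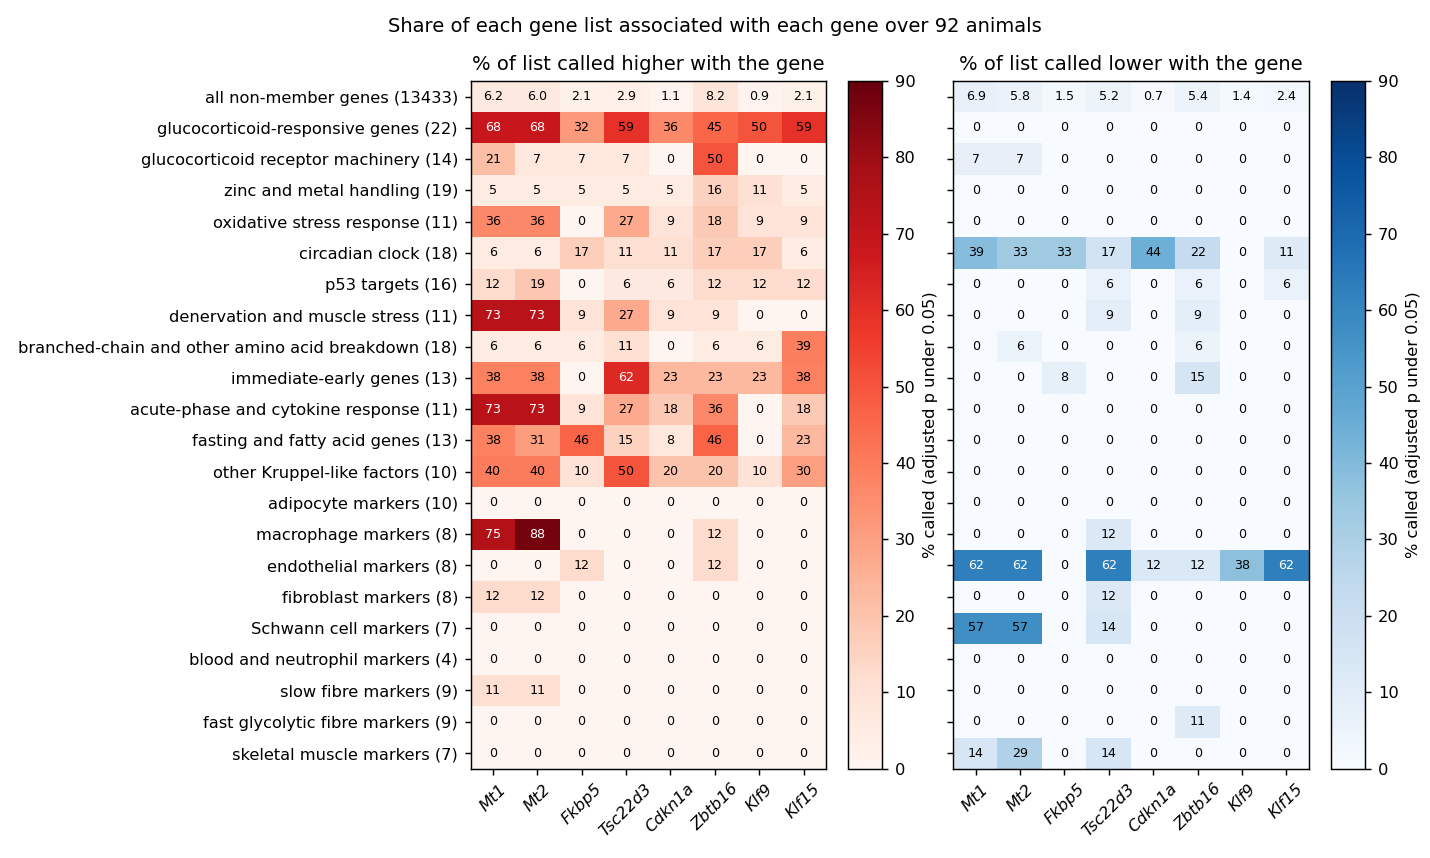
Colours and numbers give the percentage of each gene list, or of all 13433 genes in the top line, that was called higher (left) or lower (right) per SD of each of the 8 genes at a limma adjusted p under 0.05, with the number of genes in each list in brackets. Macrophage markers were called higher in 6 of 8 with Mt1 and 7 of 8 with Mt2, and clock genes were called lower in 8 of 18 with Cdkn1a and in none with Klf9.

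Animals with more Fkbp5 RNA had more RNA of fasting and fat oxidation genes and less of clock output genes. With Fkbp5, 494 genes were called, 3.68%, with 286 higher (2.13%) and 208 lower (1.55%). The steepest rises were those of Gm48942, Gm56906 and Gm20186, at 0.65 ± 0.12, 0.63 ± 0.11 and 0.63 ± 0.10 per SD. The steepest falls were those of the protease gene Htra4, at -0.60 ± 0.12, the clock output gene Dbp, at -0.53 ± 0.077 (adjusted p = 1.12e-06), and Kera, which encodes the matrix protein keratocan, at -0.44 ± 0.12. The genes most like Fkbp5 were the endosome GTPase gene Rab7, with an r of 0.72, the Z-disc gene Pdlim5, at 0.69, and the carbonic anhydrase gene Car14, at 0.61.

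Of 13 fasting and fatty acid genes 6 were called higher with Fkbp5 and none lower, with a median slope of 0.11 against -0.0032 over all genes. Pdk4, the kinase that holds back glucose oxidation, rose by 0.44 ± 0.090 (adjusted p = 0.000799), Ucp3, the muscle uncoupling protein gene, by 0.30 ± 0.054 and Acot2, a mitochondrial thioesterase gene, by 0.28 ± 0.055. Below the gap 3 of the 13 were called, Pdk4 at 0.40 ± 0.11, Ucp3 at 0.24 ± 0.062 and Acot2 at 0.26 ± 0.061, and with 3 principal components 1 was. Of the 18 clock genes 6 fell and 3 rose with Fkbp5. Per3, a period gene, fell by 0.27 ± 0.047, and its slope was -0.35 ± 0.052 in the 77 animals below the gap (adjusted p = 5.18e-06). Nfil3 rose by 0.41 ± 0.070.

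Animals with more Tsc22d3 RNA had more RNA of immediate-early genes and Kruppel-like factors and less of endothelial markers. With it 1091 genes were called, 8.12%, with 396 higher (2.95%) and 695 lower (5.17%). Arrdc2 rose by 0.91 ± 0.084 per SD (adjusted p = 6.98e-14), Slc25a25, a mitochondrial ATP-Mg carrier gene, by 0.85 ± 0.088 and Hspa1b, an inducible Hsp70 gene with a near-identical copy, by 0.78 ± 0.19. Inmt at -0.47 ± 0.078, Gm11266 at -0.47 ± 0.065 and Tnfaip3, the NF-kB inhibitor A20, at -0.42 ± 0.053 fell most. The genes most like it were Arrdc2, Glul, which encodes glutamine synthetase, and Per1, with r of 0.74, 0.72 and 0.71.

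Of 13 immediate-early genes 8 were called higher with Tsc22d3, with a median slope of 0.24. Nr4a1, an orphan nuclear receptor gene, rose by 0.32 ± 0.045 (adjusted p = 1.72e-07), Jun by 0.21 ± 0.034 and Zfp36, which encodes an RNA decay factor, by 0.29 ± 0.055. Of 10 other Kruppel-like factors 5 were called higher, including Klf6 at 0.29 ± 0.040, Klf4 at 0.17 ± 0.046 and Klf2 at 0.24 ± 0.064. Of the 8 endothelial markers 5 were called lower, Kdr at -0.30 ± 0.031, Cdh5 at -0.15 ± 0.024 and Emcn at -0.19 ± 0.032 among them, and the endothelial score had an r of -0.50 with Tsc22d3. Below the gap 2 of the 13 immediate-early genes, 3 of the 10 factors and 3 of the 8 endothelial markers were called, and with 3 principal components 2, 2 and 1.

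Cdkn1a had the fewest associated genes of the 8 members in these fits. With it 251 genes were called, 1.87%, with 153 higher (1.14%) and 98 lower (0.73%). Rrad, a muscle GTPase gene, rose by 0.54 ± 0.12 per SD (adjusted p = 0.00284), Arrdc2 by 0.54 ± 0.11 and Gm48942 by 0.55 ± 0.13. The genes most like Cdkn1a, apart from members, were Cebpd, Tnfrsf12a and Tubb6, each with an r of 0.51 or 0.50. Mt2, Mt1 and Fkbp5 ranked above all of them.

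The genes that fell with Cdkn1a included the PAR bZIP clock output factors. Dbp fell by 0.43 ± 0.083 (adjusted p = 0.000845), Hlf by 0.29 ± 0.046 and Tef by 0.10 ± 0.020, and 8 of the 18 clock genes were called lower and 2 higher. Cntnap2, a neurexin family gene, at -0.37 ± 0.086 and Inmt at -0.36 ± 0.084 also fell. Of 16 p53 targets 1 was called, Btg2, an antiproliferative gene, at 0.20 ± 0.055 (adjusted p = 0.0321), and the list's median slope was 0.0020. Below the gap the slope of Btg2 was 0.073 ± 0.071 (adjusted p = 0.908), and those of Arrdc2 and Rrad, at 0.32 and 0.20, were not called either. No gene was called with Cdkn1a once Mt2 was a covariate, and 878 then had an unadjusted p under 0.05. In the 77 animals below the gap 15 genes were called, among them Dbp at -0.51 ± 0.11 and Tef at -0.13 ± 0.025, and 4 of the clock genes were then called lower. The number was 2 with 3 principal components.

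More genes were called with Zbtb16 than with any other member in these fits. With the run of title numbers as covariate the order changed, to 1255 against 1692 with Mt1 and 1550 with Mt2. Without that covariate 1822 genes were called with Zbtb16, 13.6%, with 1097 higher (8.17%) and 725 lower (5.4%). Nr4a3 rose by 0.89 ± 0.15 per SD (adjusted p = 7.82e-06), and the inducible Hsp70 genes Hspa1a and Hspa1b, near-identical copies whose reads may be split between them, rose by 0.73 ± 0.20 and 0.66 ± 0.19. The slope of Hspa1b was -0.065 with 3 principal components as covariates. Gm11266, Dbp and Htra4 fell by 0.52 ± 0.060, 0.46 ± 0.082 and 0.36 ± 0.13. The genes most like it were those of the vesicle coat protein Sec24a, at 0.72, the junction protein Pkp4, at 0.68, and the clathrin adaptor Picalm, at 0.66.

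Of the 14 genes of the receptor machinery, 7 were called higher with Zbtb16 and none lower. The list has chaperones and cofactors that hold or assist the glucocorticoid receptor, and also Nr3c2, the mineralocorticoid receptor gene. All 14 slopes were positive, with a median of 0.058 against -0.0034 over all genes. Hspa8, the constitutive Hsp70 gene, rose by 0.16 ± 0.025 (adjusted p = 6.42e-06), Hsp90ab1 by 0.091 ± 0.018 and Hsp90aa1 by 0.29 ± 0.069. The count was 7 without the 15 animals as well, but 3 with the run of title numbers as covariate. With 3 principal components as covariates none of the 14 was called in limma, and 1 rose and 1 fell at an unadjusted p under 0.05. With the other 7 members between 0 and 3 of these genes were called higher, and up to 1 lower.

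Animals with more Zbtb16 RNA also had more RNA of fasting genes. Of the 13 genes 6 were called higher, with Pdk4 at 0.61 ± 0.079 (adjusted p = 1.37e-08), Ucp3 at 0.36 ± 0.050 and Ppargc1a, the mitochondrial coactivator gene, at 0.34 ± 0.057. Below the gap 4 were called, and Pdk4 had a slope of 0.57 ± 0.091. Of the 11 denervation and muscle stress genes 1 was called higher with Zbtb16 and 1 lower, against 8.17% and 5.4% of all genes. The higher one was Musk, the kinase gene of the neuromuscular junction, at 0.27 ± 0.053. With 3 principal components the slope of Musk was -0.039. None of the printed slopes on Zbtb16 passed once the first 3 principal components were covariates, where 2 genes in all were called.

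Animals with more Klf9 RNA had more RNA of several clock genes and less of several endothelial markers. With Klf9, 312 genes were called, 2.32%, with 127 higher (0.945%) and 185 lower (1.38%). Arrdc2 rose by 0.58 ± 0.11, the clock gene Per1 by 0.56 ± 0.079 (adjusted p = 5.08e-06) and Ddit4, the mTOR inhibitor REDD1, by 0.54 ± 0.10. Tnfaip3 fell by 0.33 ± 0.059, Plxdc1, an endothelial cell surface gene, by 0.29 ± 0.052 and Gm37759 by 0.28 ± 0.072. The genes most like Klf9 were Per1, the sestrin gene Sesn1 and the anion channel gene Lrrc8a, with r of 0.59, 0.53 and 0.52.

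Of the 18 clock genes, which leave out Per1, 3 were called higher with Klf9 and none lower, Per2 at 0.37 ± 0.091, Nr1d2 at 0.12 ± 0.026 and Ciart at 0.31 ± 0.075. Without the 15 animals 4 genes in all were called with Klf9, and 1467 had an unadjusted p under 0.05. Nr1d2 was one of the 4, with a slope of 0.18 ± 0.033 (adjusted p = 0.0061). Of the 8 endothelial markers 3 were called lower with Klf9, among them Kdr at -0.18 ± 0.040 and Emcn at -0.17 ± 0.033, and the endothelial score had an r of -0.32 with it. Below the gap none of the 8 was called in limma, and 2 were lower at an unadjusted p under 0.05, as with 3 principal components.

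With Klf15, 607 genes were called, 4.52%, with 2.14% higher and 2.37% lower. Arrdc2 at 0.65 ± 0.11, Nr4a3 at 0.60 ± 0.16 and Slc25a25 at 0.57 ± 0.11 rose most. Tnfaip3 at -0.39 ± 0.055, the calcium channel subunit gene Cacna2d4 at -0.36 ± 0.078 and the muscle methyltransferase gene Mettl21c at -0.35 ± 0.072 fell most. The transcription factor gene Foxo3, with an r of 0.75, Glul, at 0.73, and Sesn1, at 0.71, were most like it.

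Amino acid breakdown followed Klf15. Of 18 genes of branched-chain and other amino acid breakdown 7 were called higher and none lower, all 18 slopes were positive, and the median was 0.051 against -0.0029 over all genes. Prodh, proline dehydrogenase, rose by 0.25 ± 0.047 (adjusted p = 0.000155), Dbt, a subunit of the branched-chain keto acid dehydrogenase, by 0.13 ± 0.029 and Bcat2, the mitochondrial branched-chain transaminase, by 0.12 ± 0.027. Without the 15 animals 7 were again called, with Bcat2 at 0.14 ± 0.034, Dbt at 0.16 ± 0.036 and Prodh at 0.22 ± 0.057. With each of the other 7 members between 0 and 2 genes of this list were called higher. Of the 8 endothelial markers 5 were called lower with Klf15, and the endothelial score had an r of -0.42 with it, and 1 was called without the 15 animals and 2 with 3 principal components.

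A list of 22 further glucocorticoid-responsive genes was set against all 8 members. Of these, 15 were called higher with Mt1, 15 with Mt2, 13 with Tsc22d3, 13 with Klf15, 11 with Klf9, 10 with Zbtb16, 8 with Cdkn1a and 7 with Fkbp5, and none was called lower with any member. Of all genes, the shares called higher were 6.2% with Mt1, 6.02% with Mt2, 2.95% with Tsc22d3 and 2.14% with Klf15. They were 0.945% with Klf9, 8.17% with Zbtb16, 1.14% with Cdkn1a and 2.13% with Fkbp5, so the 8 counts do not rank the members. The median slope was highest on Klf15 and Tsc22d3, at 0.19 for each, and lowest on Fkbp5, at 0.094. Arrdc2, Glul and Trim63, the ubiquitin ligase MuRF1 of muscle breakdown, were called in each of the 8 fits. Trim63 rose by 0.35 ± 0.045 per SD of Mt2 (adjusted p = 4.41e-09) and by 0.27 ± 0.050 per SD of Cdkn1a. Other well-known targets, Sgk1, Dusp1, Pik3r1 and Eif4ebp1, were called in none of the 8 limma fits. Their unadjusted p was under 0.05 in 1, 1, 0 and 2 fits, and the slopes of Sgk1 ran from -0.039 to 0.12.

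Within the list, Per1 was called with Mt1, Mt2, Tsc22d3, Klf9 and Klf15, and its slope was 0.68 ± 0.069 on Tsc22d3 but 0.036 on Fkbp5 and 0.23 on Zbtb16. Lpin1, a lipid phosphatase gene, was called only in the fits for Fkbp5, at 0.20 ± 0.031, and Zbtb16, at 0.23 ± 0.029. Glul rose by 0.43 ± 0.042 per SD of Tsc22d3 and by 0.43 ± 0.041 per SD of Klf15. Sesn1 rose by 0.30 ± 0.031 per SD of Klf15 and by 0.22 ± 0.038 per SD of Klf9. The difference between members was not tested for any of these genes.

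In the 77 animals below the gap 10 of the 22 genes were called with Tsc22d3, 5 with Zbtb16, 5 with Klf15, 2 with Mt1, 1 with Mt2, 1 with Fkbp5 and none with Cdkn1a or Klf9, with which 7 each rose at an unadjusted p under 0.05. Below the gap Arrdc2 kept slopes of 0.80 ± 0.10 on Tsc22d3 (adjusted p = 7.69e-08) and 0.76 ± 0.19 on Mt2 (adjusted p = 0.0196), and Glul kept 0.33 ± 0.045 on Tsc22d3 and 0.31 ± 0.047 on Klf15. With 3 principal components as covariates 11 genes were called with Klf15, 10 with Tsc22d3, 2 with Fkbp5, 2 with Klf9, and none higher with Mt1, Mt2, Cdkn1a or Zbtb16, with which 6, 9, 5 and 1 rose at an unadjusted p under 0.05. In that fit 1 gene of the list, Bcl6, was called lower with Mt2.

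**Figure D5:**
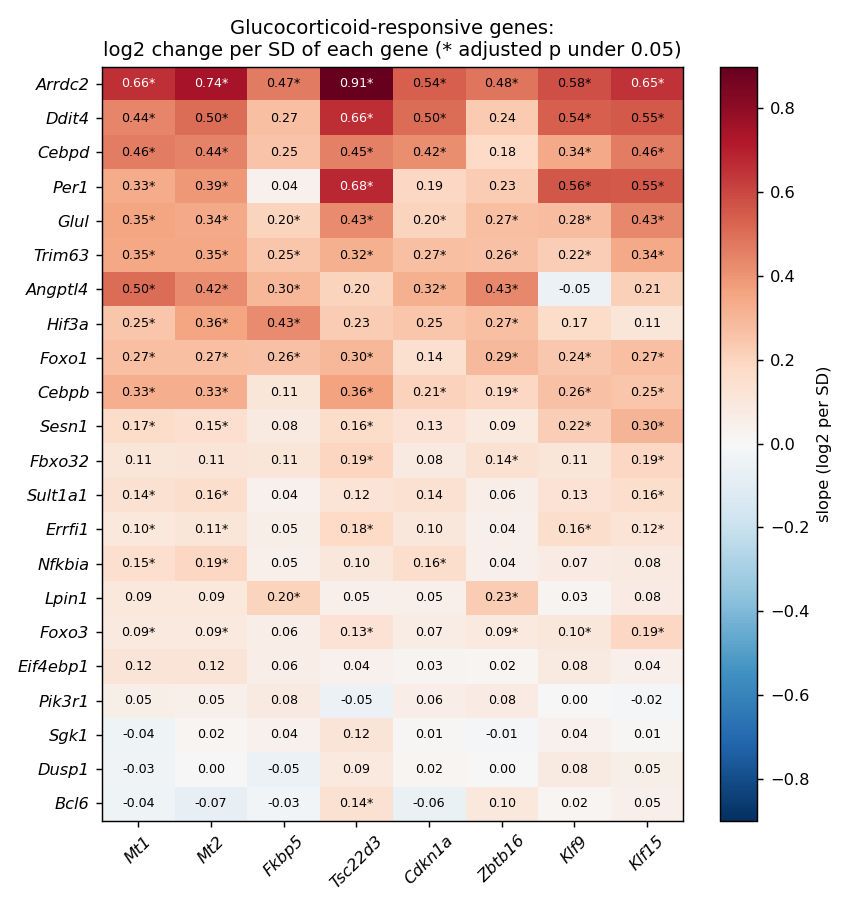
Each cell is the limma slope of a glucocorticoid-responsive gene, in log2 change per SD of the gene named under the column, over 92 animals, with a star at an adjusted p under 0.05. Arrdc2 has the steepest slope of the grid, 0.91 on Tsc22d3, and Sgk1, Dusp1, Pik3r1 and Eif4ebp1 carry no star.

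The receptor gene itself was called with no member. Nr3c1, which encodes the glucocorticoid receptor, lay between 5.85 and 7.20 with a median of 6.63, and it was called in none of the 8 fits. Its slope had an unadjusted p under 0.05 in 3 of them, -0.058 ± 0.022 on Mt1 (adjusted p = 0.071), -0.052 ± 0.023 on Mt2 and 0.051 ± 0.023 on Klf15. Mtf1, the metal sensor gene, was called with Zbtb16 alone, at 0.084 ± 0.021 (adjusted p = 0.00285), and its slope on Fkbp5 was 0.068 ± 0.021 (adjusted p = 0.0512).

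The zinc importer gene Slc39a14 was called with 8 of the 8 members, from 0.24 ± 0.029 per SD of Mt1 to 0.12 ± 0.036 per SD of Klf9. Without the 15 animals its slope was 0.082 ± 0.025 on Zbtb16 (adjusted p = 0.0314), and it was called with no other member. Its slopes on Klf15 and Klf9 were then negative, at -0.026 and -0.058. Its slopes with 3 principal components were -0.0032 on Cdkn1a, -0.014 on Tsc22d3 and -0.086 on Zbtb16. The zinc exporter gene Slc30a1 rose by 0.086 ± 0.024 per SD of Klf9 (adjusted p = 0.0365). The other cell types in the muscle gave few calls: no adipocyte or blood marker was called with any member, with 1 adipocyte marker each for Mt1 and Tsc22d3 at an unadjusted p under 0.05, and each of the fibroblast, slow fibre and fast fibre lists had at most 1 marker called with any member.

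Depth is unknown for these libraries, so order and labels were checked instead. The numbers in the sample titles fall into 5 runs parted by gaps, of 33, 14, 21, 11 and 13 animals, and their meaning is not given in the sources used here. Over all genes 2 of 13441 differed between the runs (0.0149%), and 82 had a slope on the library number (0.61%). No member passed either limma test. Unadjusted p-values for the runs were 0.018 for Tsc22d3, 0.0266 for Klf9 and 0.0447 for Fkbp5, and Klf9 had 0.0205 for the library number. Mean Mt2 was 1.10 ± 1.90 in the first run and 2.59 ± 1.96 in the fourth, within the spread between animals.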

How the data were processed

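RNA of 92 quadriceps samples was measured by sequencing. The libraries used 500 ng of RNA and a poly(A) RNA kit (KAPA mRNA HyperPrep), per the labels' protocols. The values deposited by the authors are log2 expression in 1 table, and the scale was read from the values: raising 2 to each value and summing a sample gave between 898071 and 1140761. The submitters' processing notes name bcl2fastq, MultiQC, kallisto 0.50.1, edgeR and mm10, with no role. Library depth, counting settings and any filter of weak genes are not given in the sources used here, so no counting interval was computed and the spread over animals gives the precision. Of 13456 lines 15 were repeats, which left 13441 genes. Among 4186 pairs of libraries none was a duplicate, since the closest pair differed by 0.521 (root mean square, log2).

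Tests planned for read counts were replaced by limma 3.58.1 in R 4.3.3, with a mean-variance trend, because the values are log2. Each fit was a slope on the standardised member over all animals, or a test over 5 runs of title numbers or of the library number, adjusted by Benjamini-Hochberg over all genes. The fit was tested on simulated data. The members and the 21 gene lists (246 of 261 genes present) were chosen with earlier results of these data known, and list counts are descriptions. Named for each member were the steepest slopes of called genes whose mean reached 1, at most 3 in each direction, the 3 genes with the highest r, up to 3 genes of a list with the smallest adjusted p, and Nr3c1 and Mtf1. Sgk1, Dusp1, Pik3r1 and Eif4ebp1, the changes of Per1, Lpin1, Glul and Sesn1 between members, Bcl6, Per2 with the metallothioneins, and the animal with the highest Mt2 were chosen after their values were seen. Alternatives were the run, 3 principal components, 7 marker scores or a member of the other class as covariates (Fkbp5 for the metallothioneins, Mt2 for the rest), leaving out 2 or 15 animals, normal scores, log2 of the linear value plus 1 and a minimum mean of 1.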

Additional observations from a re-analysis of the deposited data

How the results depend on the processing

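The share of genes called stayed within 1.5 times under 4 or more of the 9 alternatives for each member except Klf9, and the settings that moved it further were these, in percent of genes tested. With 3 principal components as covariates it was 0.0968% for Mt1, 0.387% for Mt2, 1.17% for Fkbp5, 1.42% for Tsc22d3, 0.149% for Cdkn1a, 0.0149% for Zbtb16 and 0.261% for Klf9. With 7 marker scores it was 5.45% for Mt1, 4.82% for Mt2, 3.95% for Tsc22d3, 0.648% for Cdkn1a, 0.618% for Klf9 and 2.77% for Klf15. With the run of title numbers it was 2.23% for Fkbp5 and 1.26% for Klf9. Without the 2 animals farthest from the median of the member it was 2.02% for Fkbp5, 0.849% for Cdkn1a, 8.15% for Zbtb16, 1.18% for Klf9 and 2.65% for Klf15. With a member of the other class as covariate it was 0 for Cdkn1a (878 genes at an unadjusted p under 0.05 in limma) and 0.975% for Klf9, and with normal scores 1.31% for Klf9. Without the 15 animals above the gap in Mt2, a choice made after seeing the data that leaves fewer animals, it was 2.62% for Mt1, 1.06% for Mt2, 1.21% for Fkbp5, 4.30% for Tsc22d3, 0.112% for Cdkn1a, 7.88% for Zbtb16, 0.0298% for Klf9 and 1.56% for Klf15. Genes differing between runs were 0 with components (779 at an unadjusted p under 0.05 in limma) and 0.00744% with marker scores, and genes with a slope on the library number 0.320%, 0.372% and, at a mean of at least 1, 1.25%. Apart from the smaller number of animals, the cause was not tested.

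Of 149 printed or eligible slopes, 91 kept their direction and lost their call with components, 59 without the 15 animals and 29 with marker scores, and the following changed sign. With components Slc39a14 had slopes of -0.0032 on Cdkn1a, -0.014 on Tsc22d3 and -0.086 on Zbtb16, Cdh5 0.0026, Kdr 0.036, Lyz2 -0.0093, Myog -0.014 and Runx1 -0.025 on Mt2, and Hspa1b -0.065 and Musk -0.039 on Zbtb16. Among uncalled slopes, Mtf1 became -0.0050 on Klf15 and -0.060 on Tsc22d3, and Nr3c1 -0.080 on Zbtb16. With the other class, Slc39a14 became -0.032 on Cdkn1a, Nr3c1 0.030 on Fkbp5 and Mtf1 -0.026 on Tsc22d3. Without 2 animals Nr3c1 became -0.0057 on Zbtb16, and without 15 Slc39a14 became -0.026 on Klf15 and -0.058 on Klf9 and Mtf1 -0.0063 on Tsc22d3. No paired analysis was possible because the labels put all animals in 1 group.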
